A study of Mus musculus with 48 samples.

Results

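The 3 genes of the Zfp36 family (Zfp36, Zfp36l1 and Zfp36l2), 3 genes of the BTG family (Btg1, Btg2 and Btg3) and the related Tob1 and Tob2 were followed through stretching of muscle cells. These 8 genes were taken by name from a list of mRNA decay factors, out of 47480 gene symbols in the count tables, and all 8 were found. They and the gene lists used below were chosen with earlier results of these data known. Their counts beside shares of all genes are therefore description and not a test. C2C12, an established mouse myoblast line that fuses into multinucleated muscle cells, was grown on flexible collagen-coated plates and stretched in cycles along all directions of the plate with a Flexcell system and collected at 1, 3 and 6 h. Stretching was applied to myoblasts or to cells that had first been differentiated, and each time had its own non-stretched cells on the same kind of plate, which gave 12 groups of 4 RNA-seq libraries. No group carries a genetic change or a drug, and all cells come from 1 cell line.

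Proteins of the Zfp36 family, of which tristetraprolin (encoded by Zfp36) is the best known, carry a pair of CCCH zinc fingers that bind the sequence UAUUUAU in AU-rich elements of 3′ UTRs and bring the CCR4-NOT deadenylase to the mRNA, whose poly(A) tail is then removed. BTG and TOB proteins share a domain that binds the deadenylase subunits CNOT7 and CNOT8, and TOB proteins also bind the poly(A)-binding protein. Zfp36 and Btg2 are known as immediate early genes in many cell types, and genes of both families restrain proliferation and take part in muscle differentiation.

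All libraries of the differentiated cells held high levels of muscle genes. Myogenin (Myog) was at a mean of 862 CPM (the count scaled to library size with TMM factors over the 48 libraries) in differentiated cells and 1.21 CPM in myoblasts, and Myod1 and desmin (Des) were present at both stages. Markers of leukocytes (Ptprc), endothelium (Pecam1), epithelium (Epcam) and fat cells (Adipoq) had at most 9 counts in a library. The libraries held 48447318 to 77080730 counts, and the 8 genes had between 610 and 48501 counts in each, so that all 8 passed the filter on low counts in every comparison. In differentiated cells stretched for 1 h, replicate 4 comes from an experiment with no other library here and lay far from the other 3 libraries for several of the 8 genes. The values of the 8 genes at that time are therefore given with and without it. As it was singled out partly by these same values, adjusted p without it are description and not an independent test. Replicates of a group were separate samples, 2 from each of 2 experiments in all other groups, and p-values measure the spread between these samples. For stretched replicate 9 of the 1 h myoblasts the title and the column of the table spell the experiment code differently, and it was taken as the experiment of replicate 10. The labels give nuclear RNA as the molecule, whereas the methods name a column kit used on washed cells and no isolation of nuclei, so which RNA the levels stand for cannot be settled here. In bulk RNA, fewer cells of a type and less RNA per cell cannot be told apart.

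The mRNAs of the Zfp36 family themselves carry the element that the family binds. The heptamer UAUUUAU was searched in the longest annotated 3′ UTR of each gene (GENCODE vM21, mm10), on the strand of the mRNA, and 28% of 20515 genes with a 3′ UTR hold at least 1 copy. The 3′ UTR of Zfp36 is 774 bases long and holds 3 copies within a short stretch, as many as 1.24% of 2347 3′ UTRs within 20% of its length. Zfp36l1 and Zfp36l2 also hold 3 copies each, Btg3 holds 2, Btg2 and Tob2 hold 1 each, and Btg1 and Tob1 hold none. As many copies are held by 4.2%, 4.19% and 2.25% of 3′ UTRs of similar length for Zfp36l1, Zfp36l2 and Btg3. For Btg2 and Tob2 these shares are 42.7% and 46.6%, so 1 copy is common at their length. The sites of Zfp36 and Btg2 are printed 5′ to 3′ in DNA letters, with the heptamer in capitals, because in myoblasts Zfp36 had the largest log2 fold change of the 8 genes at 1 h and Btg2 at 3 h.
Zfp36, chr7:28376966-28376994, minus strand: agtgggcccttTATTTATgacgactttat
Zfp36, chr7:28376951-28376979, minus strand: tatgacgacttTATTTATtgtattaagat
Zfp36, chr7:28376926-28376954, minus strand: agattttatagTATTTATatatattgggt
Btg2, chr1:134077249-134077277, minus strand: aaatgaagagcTATTTATacatgtttttt

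Windows of 300 bases around the annotated starts (250 bases before to 50 after, RefSeq, GRCm38.p6) were searched on both strands for binding motifs of immediate early transcription factors. The motifs were the cAMP response element TGACGTCA, the EGR motif GCGNGGGCG, the AP-1 motif TGANTCA and the CArG box of serum response factor, and none of the matches overlapped in the 7 genes that have a window (Zfp36l2 has none in the table used). Zfp36 holds a CArG box, which 1.63% of 32851 windows hold, at 58 bases before its start and an EGR motif, which 5.55% hold, at 105 bases. This RefSeq start and both stretches lie inside the longer gene span given below for Zfp36. Btg2 holds the cAMP response element, found in 1.79% of windows, at 166 bases and an EGR motif at 131 bases before its start. An AP-1 motif, found in 7.81% of windows, lies in Zfp36l1, and none of the 4 motifs was found in Btg1, Btg3, Tob1 or Tob2. A match describes these letters only. The stretches are shown for Zfp36 and Btg2, with the match in capitals.
Zfp36 CArG box, chr7:28379267-28379296, minus strand: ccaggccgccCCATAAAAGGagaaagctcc
Zfp36 EGR motif, chr7:28379314-28379343, minus strand: gagctacgccGCGGGGGCGcgtcccggaag
Btg2 cAMP response element, chr1:134079303-134079332, minus strand: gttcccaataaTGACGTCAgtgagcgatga
Btg2 EGR motif, chr1:134079267-134079296, minus strand: cgcctgggagGCGCGGGCGagctggcgggc

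In myoblasts, Zfp36 was lower in stretched cells at 1 h and was not shown to differ at 3 h or 6 h. The gene lies on chromosome 7 from 28376784 to 28380253 (minus strand). Non-stretched myoblasts at 1 h had 19.9, 19.8, 19.6 and 19.9 CPM, and stretched myoblasts 14.1, 14.2, 15.7 and 15.1 CPM. All 4 stretched libraries lay below all 4 non-stretched ones. Zfp36 fell by 0.42 on the log2 scale (SE 0.0425, adjusted p = 1.88e-04, edgeR), which is a 1.34-fold lower level. At 3 h its stretched libraries had 20.5, 22.6, 21.5 and 21.7 CPM against 20, 20.9, 18.7 and 20.7 CPM, and the groups overlapped (log2 fold change 0.09, adjusted p = 0.116). The groups also overlapped at 6 h (0.14, adjusted p = 0.0922). The effect of stretching on Zfp36 was higher at 3 h than at 1 h by 0.51 (SE 0.0696, adjusted p = 1.81e-05) and at 6 h than at 1 h by 0.56 (SE 0.0694, adjusted p = 3.39e-06).

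Differentiated cells stretched for 1 h fell into 3 libraries with low Zfp36 and 1 with a high level. Replicates 7, 8 and 9 had 12.8, 13.2 and 15.6 CPM, whereas replicate 4 had 40.0 CPM, and the non-stretched libraries had 19.8, 18.6, 20 and 18.8 CPM. The 3 low libraries lay below and replicate 4 above all of the non-stretched libraries. With all 8 libraries the log2 fold change was 0.07 (SE 0.325, adjusted p = 0.978). Without replicate 4 it was -0.48 (SE 0.0742, adjusted p = 0.0211). Within the experiment of replicates 7 and 8, the difference of mean log2 CPM was -0.56, and within that of replicates 9 and 10 it was -0.31. At 3 h, Zfp36 had 16.9, 16.7, 17.5 and 19.2 CPM in stretched and 18.9, 19.4, 21.5 and 21.7 CPM in non-stretched differentiated cells. It fell by 0.22 (SE 0.0615, adjusted p = 0.0295), and the groups overlapped by 1 library. A fall by 0.13 was measured at 6 h (SE 0.041, adjusted p = 0.0472), where the groups did not overlap. Both falls no longer passed the test when single libraries were left out, in 5 of 8 cases at 3 h and in 7 of 8 at 6 h.

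Zfp36l1, the BRF1 member of the family, fell at 3 h in myoblasts, when the groups overlapped for Zfp36. It lies on chromosome 12 from 80107754 to 80113013 (minus strand), and 6.79% of its stretches of 31 bases occur in a pseudogene or in Zfp36l2. In myoblasts at 1 h all 4 stretched libraries (20.7 to 21.9 CPM) lay above the non-stretched ones (19.2 to 19.8 CPM), but the test did not pass (0.13, SE 0.0361, adjusted p = 0.0594). At 3 h the non-stretched libraries had 21.4, 20.7, 19.6 and 20.6 CPM and the stretched ones 14.6, 14.5, 15.4 and 14 CPM. The groups were well apart, and Zfp36l1 fell by 0.50 (SE 0.0397, adjusted p = 3.55e-06), a 1.42-fold lower level. At 6 h the groups overlapped (-0.10, adjusted p = 0.267). The difference between the effects at 3 h and 1 h was -0.64 (SE 0.0662, adjusted p = 5.92e-07).

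In differentiated cells the fall of Zfp36l1 was present at both later times. Non-stretched libraries had 146, 145, 150 and 147 CPM at 3 h and 142, 149, 148 and 147 CPM at 6 h. The stretched libraries had 131, 125, 136 and 134 CPM at 3 h and 120, 118, 130 and 111 CPM at 6 h. No stretched library reached a non-stretched one at either time. Zfp36l1 fell by 0.16 at 3 h (SE 0.0312, adjusted p = 0.0046) and by 0.29 at 6 h (SE 0.0444, adjusted p = 0.00192). At 1 h all stretched libraries, 164 to 185 CPM, were above the non-stretched ones, 140 to 159 CPM, without passing the test (0.19, adjusted p = 0.245, and 0.15, adjusted p = 0.346, without replicate 4). The effect was lower than at 1 h by 0.36 at 3 h (adjusted p = 0.0022) and by 0.49 at 6 h (adjusted p = 8.06e-05).

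Zfp36l2, the BRF2 member, moved in the opposite direction to Zfp36l1 at 3 h in myoblasts. The gene lies on chromosome 17 from 84183931 to 84187947 (minus strand). Its stretched myoblasts had 705, 711, 730 and 672 CPM at 3 h, and its non-stretched myoblasts 570, 594, 569 and 576 CPM. The groups did not overlap, and Zfp36l2 rose by 0.28 (SE 0.0277, adjusted p = 1.52e-05). It had risen by 0.18 at 1 h (SE 0.0373, adjusted p = 0.0155). That rise no longer passed without stretched replicate 9 or stretched replicate 10 (highest adjusted p = 0.0715). At 6 h the groups overlapped (-0.08, adjusted p = 0.216). In differentiated cells at 3 h the stretched libraries were uneven, with 222, 199, 282 and 309 CPM against 174, 188, 210 and 210 CPM, and the log2 fold change of 0.37 did not pass (SE 0.124, adjusted p = 0.0551). The value at 1 h was 0.26 with all libraries (adjusted p = 0.698) and 0.09 without replicate 4 (adjusted p = 0.997), and that at 6 h was 0.00 (adjusted p = 0.979).

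**Figure D1:**
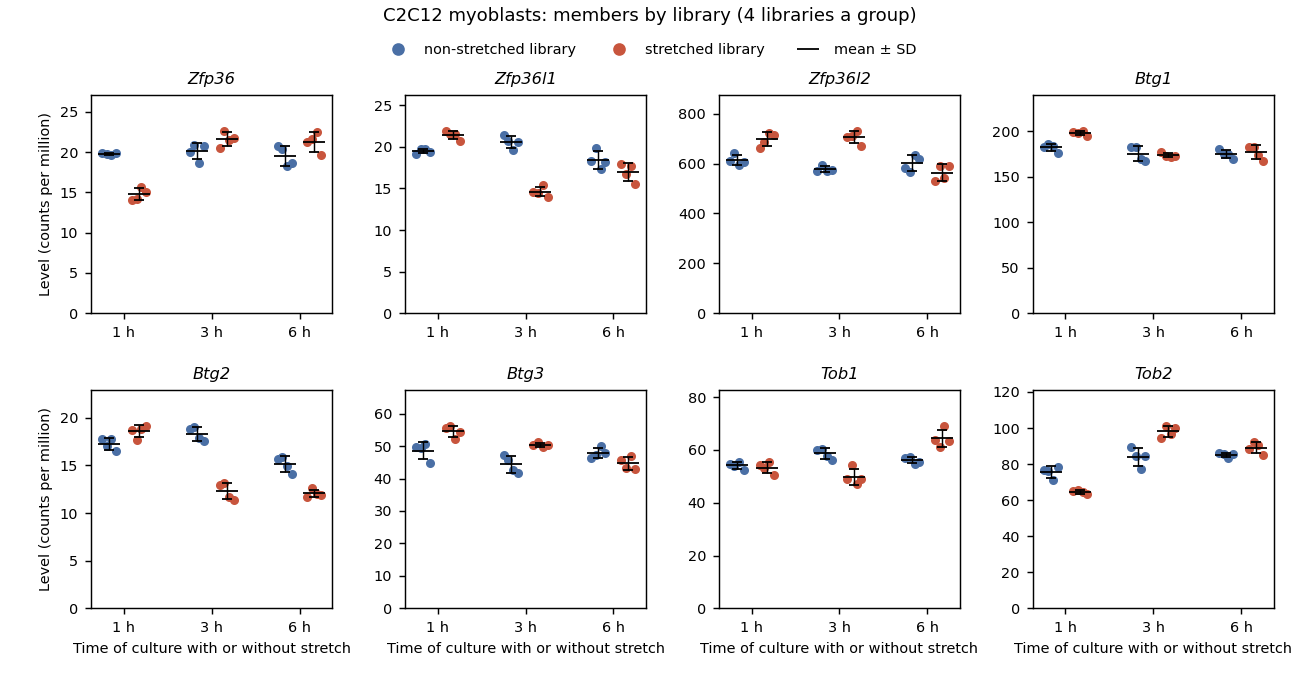
Level of each gene in CPM (vertical axis from 0) in every myoblast library at 1 h, 3 h and 6 h, non-stretched in blue and stretched in red, with the mean and SD of 4 libraries in black. Zfp36 and Tob2 are lower in the stretched libraries at 1 h, and Zfp36l1 and Btg2 at 3 h, with no overlap between the groups.

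Btg2, a p53 target and immediate early gene that activates deadenylation, had the largest fall of the 8 genes at 3 h in both stages. It lies on chromosome 1 from 134075170 to 134079120 (minus strand). In myoblasts its level at 3 h was 18.8, 19.0, 17.9 and 17.5 CPM in the non-stretched and 12.9, 13.1, 11.7 and 11.4 CPM in the stretched libraries. Each stretched library was well below each non-stretched one. Btg2 fell by 0.58 (SE 0.0497, adjusted p = 5.83e-06), a 1.5-fold lower level. A gene was called when its adjusted p was under 0.05 and its log2 fold change was 0.58 or more in size. Btg2 at this time was the only call among the 8 genes, where 1.71% of all genes tested in myoblasts at 3 h were called. The value lies at the limit, and it was between -0.62 and -0.56 when single libraries were left out, so the call was lost without any one of non-stretched replicates 7 and 8 and stretched replicates 9 and 10, and under a test against the limit (glmTreat).

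Btg2 stayed lower at 6 h and did not pass the test at 1 h in myoblasts. At 6 h the stretched libraries had 11.7, 12.6, 12 and 11.9 CPM and the non-stretched ones 15.7, 15.9, 14.9 and 14.1 CPM, again without overlap, and it fell by 0.31 (SE 0.0503, adjusted p = 0.00128). At 1 h the groups overlapped, with 17.7 to 19.1 CPM in stretched and 16.5 to 17.8 CPM in non-stretched cells (0.10, SE 0.0413, adjusted p = 0.198). The non-stretched myoblasts themselves differed among the times (adjusted p = 0.0036), with 17.3 ± 0.640 CPM at 1 h, 18.3 ± 0.720 CPM at 3 h and 15.1 ± 0.824 CPM at 6 h (SD, n = 4). The effect of stretching was lower than at 1 h by 0.69 at 3 h (SE 0.0654, adjusted p = 1.24e-07) and by 0.42 at 6 h (SE 0.0656, adjusted p = 6.88e-05).

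In differentiated cells at 1 h Btg2 was higher in every stretched library, but the test with all libraries did not pass. It was lower in stretched cells at 3 h and 6 h. The stretched libraries at 1 h had 55.1, 54.8 and 61.5 CPM in replicates 7, 8 and 9 and 123 CPM in replicate 4, and the non-stretched ones had 39.1, 40.1, 40.3 and 40.0 CPM. Every stretched library was above every non-stretched one. The log2 fold change was 0.88 with all libraries but had a large error (SE 0.234, adjusted p = 0.164), and without replicate 4 Btg2 rose by 0.52 (SE 0.0474, adjusted p = 0.00103). Within the experiments that have both groups, the differences of mean log2 CPM were 0.47 and 0.62.

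At 3 h the direction had turned, with 27.2, 27.5, 30.3 and 28.9 CPM in stretched and 36.3, 37.0, 38.2 and 36.2 CPM in non-stretched differentiated cells. These groups did not overlap, and Btg2 fell by 0.37 (SE 0.0402, adjusted p = 2.60e-04). At 6 h the libraries had 29.4, 31.5, 30 and 33.1 CPM against 37.9, 37.3, 35.2 and 37.3 CPM, and the fall was 0.25 (SE 0.0443, adjusted p = 0.00355). The effect at 3 h was lower than that at 1 h by 1.26 (SE 0.228, adjusted p = 0.00149), and by 0.90 without replicate 4 of the 1 h cells (adjusted p = 1.36e-08). At 6 h it was lower than at 1 h by 1.14 (SE 0.227, adjusted p = 0.00216), and by 0.77 without that library (adjusted p = 7.48e-08).

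Btg1 and Btg3 had log2 fold changes of 0.22 or less in size. Btg1, an antiproliferative gene on chromosome 10 from 96617006 to 96622809 (plus strand), lay between 149 and 200 CPM in all 48 libraries. It rose by 0.12 in myoblasts at 1 h (SE 0.0296, adjusted p = 0.0342) and fell by 0.13 in differentiated cells at 6 h (SE 0.0307, adjusted p = 0.0117). The first of these changes no longer passed in 6 of 8 fits that left out 1 library (all but non-stretched replicates 8 and 9). Btg3, whose protein also binds the deadenylase, lies on chromosome 16 from 78332637 to 78377192 (minus strand), and 18.7% of its stretches of 31 bases occur in other genes, so its counts depend on how shared reads were divided. It rose by 0.16 at 1 h (SE 0.0428, adjusted p = 0.0471) and by 0.17 at 3 h (SE 0.034, adjusted p = 0.00182) in myoblasts. In differentiated cells it rose by 0.22 at 3 h (SE 0.0629, adjusted p = 0.0324). At 1 h in differentiated cells neither gene passed, with 0.08 for Btg1 (0.07 without replicate 4) and 0.19 for Btg3 (0.07 without replicate 4). The rise of Btg3 in myoblasts at 1 h no longer passed in 7 of 8 fits without 1 library, and that in differentiated cells at 3 h in 6 of 8. Cxadr, on the opposite strand at the same locus, had 384 to 1334 counts in a library. The libraries were made with a stranded method, but whether the counting used the strand is not given in the sources used here.

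In both stages every stretched library had less Tob2 at 1 h and more at 3 h than every non-stretched one. In differentiated cells at 1 h Tob2 did not pass with all libraries (adjusted p = 0.0796, edgeR). It lies on chromosome 15 from 81848272 to 81858796 (minus strand), and its protein links the deadenylase to the poly(A)-binding protein. Non-stretched myoblasts at 1 h had 76.9, 76.2, 71.0 and 78.2 CPM, and stretched ones 65.3, 65.9, 64.3 and 63.2 CPM. At 3 h the order was turned, with 94.7, 101, 96.7 and 100 CPM in stretched and 89.7, 84.7, 77.2 and 84.5 CPM in non-stretched myoblasts. The groups did not overlap at either time. Tob2 fell by 0.23 at 1 h (SE 0.0367, adjusted p = 0.00387) and rose by 0.21 at 3 h (SE 0.037, adjusted p = 7.77e-04). At 6 h it had a log2 fold change of 0.08 (adjusted p = 0.0762). The effects at 3 h and 1 h differed by 0.43 (SE 0.0511, adjusted p = 3.30e-06). Non-stretched myoblasts also differed among the times (adjusted p = 0.00728), with 75.6 ± 3.15 CPM at 1 h, 84.0 ± 5.12 CPM at 3 h and 85.3 ± 1.15 CPM at 6 h (SD, n = 4).

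Stretched differentiated cells at 1 h had 47.4, 48.0 and 54.6 CPM of Tob2 in replicates 7, 8 and 9 and 59.5 CPM in replicate 4, all below the non-stretched libraries at 67.1, 67.6, 64.8 and 63.9 CPM. The log2 fold change was -0.33 with all libraries (SE 0.0704, adjusted p = 0.0796), and without replicate 4 Tob2 fell by 0.40 (SE 0.0546, adjusted p = 0.0106). At 3 h the stretched libraries, with 84.3, 88.2, 82.1 and 92.2 CPM, were all above the non-stretched ones, with 73.9, 75.6, 75.5 and 77.4 CPM. Tob2 rose by 0.20 (SE 0.0367, adjusted p = 0.00378). At 6 h a rise by 0.09 just passed (SE 0.0301, adjusted p = 0.0494) and was lost in 7 of 8 fits without 1 library. The effect at 3 h was higher than at 1 h by 0.52 (SE 0.0731, adjusted p = 1.55e-04), and by 0.59 without replicate 4 (adjusted p = 2.10e-06).

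Tob1, the close relative of Tob2, moved opposite to it at 3 h in myoblasts. It lies on chromosome 11 from 94211454 to 94215495 (plus strand). Its level at 3 h was 60.1, 60.4, 57.9 and 56.3 CPM in the non-stretched and 48.9, 54.2, 47.3 and 49.1 CPM in the stretched myoblasts. The groups did not overlap, and Tob1 fell by 0.25 (SE 0.0391, adjusted p = 4.24e-04). At 6 h it rose by 0.22 (SE 0.0402, adjusted p = 0.00277), with 61.2 to 69.0 CPM in stretched and 54.8 to 57.3 CPM in non-stretched cells. At 1 h it was at -0.03 (adjusted p = 0.77). In differentiated cells no time passed, with -0.18 at 1 h (adjusted p = 0.321, and -0.14, adjusted p = 0.47, without replicate 4), -0.07 at 3 h (adjusted p = 0.309) and 0.05 at 6 h (adjusted p = 0.34).

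**Figure D2:**
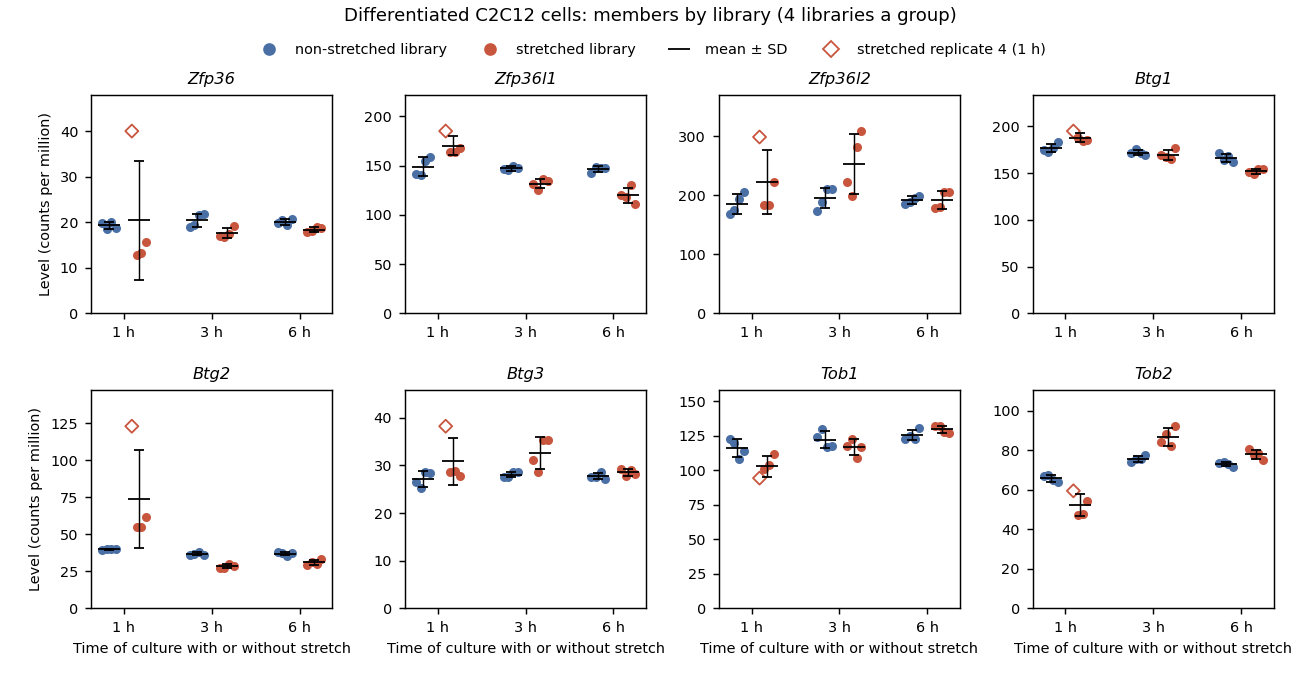
Level of each gene in CPM (vertical axis from 0) in every library of differentiated cells, non-stretched in blue and stretched in red, with the mean and SD of 4 libraries in black and stretched replicate 4 of 1 h as an open diamond. Replicate 4 stands above the other 3 libraries for every gene but Tob1, where it stands below them. Without it Zfp36 and Tob2 are lower and Btg2 is higher at 1 h.

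Counted together, 5 of the 8 genes had an adjusted p under 0.05 in myoblasts at 1 h, where 5.92% of all genes did, 6 of 8 at 3 h (31.9% of all genes) and 2 of 8 at 6 h (27.2%). In differentiated cells none of the 8 passed at 1 h, where 0.663% of all genes did (edgeR). At an unadjusted p under 0.05 they were 4 of 8 (Zfp36l1, Btg2, Tob1 and Tob2), a limit at which the share of all genes was not counted. DESeq2 gave 1 of 8 after adjustment, and the share of all genes was not counted with it. Without replicate 4, 3 of 8 passed at 1 h (Zfp36, Btg2 and Tob2), beside 1.12% of all genes, in a fit chosen partly by the values of these genes. At 3 h and at 6 h 5 of 8 passed, against 22.2% and 22.3% of all genes. The groups did not overlap for 6, 6 and 2 of the 8 genes in myoblasts at 1, 3 and 6 h, beside 13.3%, 30.8% and 28.7% of all genes, and for 4, 3 and 5 in differentiated cells, beside 6.37%, 25.9% and 26.4%. Without replicate 4 the number at 1 h was 5, beside 8.79%. Most changes were small, since 1 of the 48 values (8 genes in 6 comparisons) was called at the fold-change limit. The share of all genes called at this limit was 1.25%, 1.71% and 2.17% in myoblasts and 0.27% (0.356% without replicate 4), 1.63% and 2.04% in differentiated cells at the 3 times. As the 8 genes were chosen with earlier results of these data known, these counts only describe them.

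**Figure D3:**
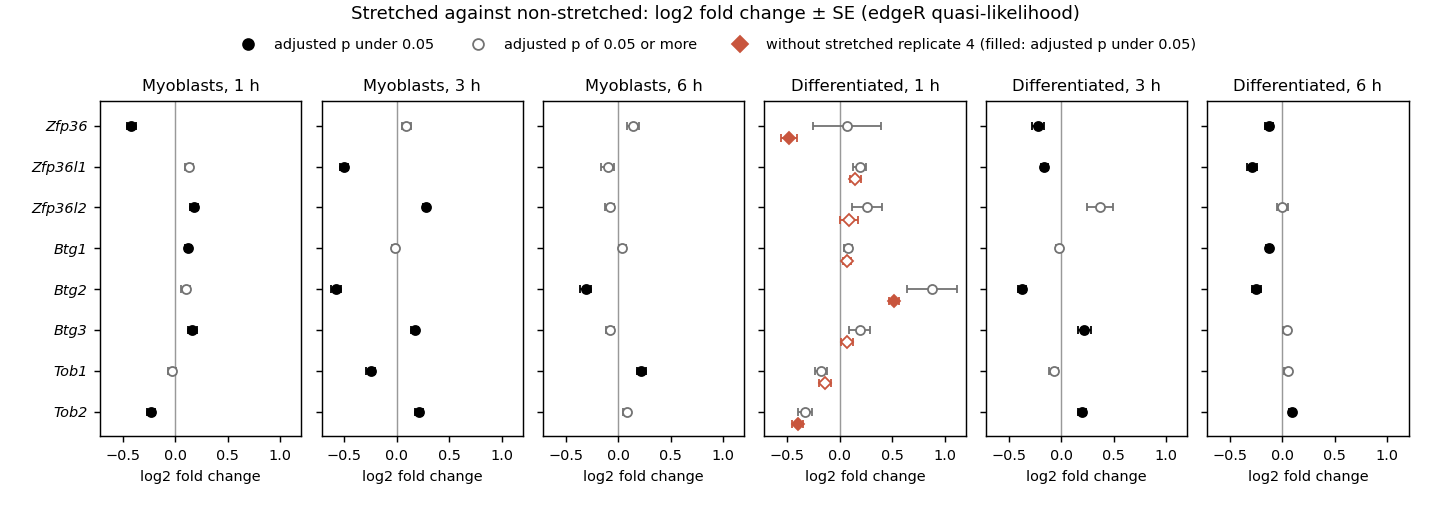
Log2 fold change of stretched against non-stretched cells (horizontal axis) with its SE for the 8 genes in each stage and at each time, filled where the adjusted p was under 0.05 (edgeR) and open elsewhere, with red diamonds for differentiated cells at 1 h without replicate 4. Zfp36 changes from -0.42 at 1 h to 0.09 at 3 h in myoblasts, Btg2 is at -0.58 and -0.37 at 3 h in the 2 stages, and Tob2 is below 0 at 1 h and above 0 at 3 h in both.

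The effect of stretching was compared between the stages with an interaction term. At 1 h none of the 8 genes passed with edgeR or DESeq2, nor did any other gene with edgeR (0%). An unadjusted p under 0.05 was found for 2 of 8 (Btg2 and Tob1), and the share of all genes at that limit was not counted. Zfp36 differed at 3 h by -0.32 (differentiated minus myoblasts, SE 0.077, adjusted p = 0.0422) and at 6 h by -0.27 (SE 0.0691, adjusted p = 0.0308). Zfp36l1 differed at 3 h by 0.34 (SE 0.0483, adjusted p = 0.00134), as its fall was smaller in differentiated cells. Btg1 differed at 6 h by -0.18 (SE 0.0463, adjusted p = 0.0354). The differences of Zfp36 and Btg1 no longer passed in most of the fits that left out 1 library. The share of all genes with such a difference was 1.79% at 3 h and 5.18% at 6 h. The fall of Btg2 at 3 h was not shown to differ (0.21, SE 0.0653, adjusted p = 0.137). Without replicate 4, the effect on Btg2 at 1 h was higher in differentiated cells by 0.41 (adjusted p = 0.0161), and those on Zfp36 (-0.06) and Tob2 (-0.17) did not pass.

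Between times, 6 of the 8 genes had a different effect at 3 h than at 1 h in myoblasts, where 10.9% of all genes did, and 7 of 8 at 6 h (21.1%). In differentiated cells, 3 of 8 differed at 3 h (5.15% of all genes) and 5 of 8 at 6 h (11.9%). These comparisons share the libraries of 1 h. The non-stretched libraries alone differed among the times for 2 of 8 genes in myoblasts (Btg2 and Tob2), beside 3.75% of all genes. In differentiated cells they did so for none with edgeR or DESeq2 (0% of all genes with edgeR). An unadjusted p under 0.05 was found for 2 of 8 (Btg1 and Tob2), and the share of all genes at that limit was not counted. Besides the values above, the effect at 6 h in myoblasts was lower than at 1 h for Zfp36l1 by 0.23, Zfp36l2 by 0.26 and Btg3 by 0.24, and higher for Tob1 by 0.24 and Tob2 by 0.31.

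For Zfp36l1, Zfp36l2, Btg2, Btg3 and Tob1, the log2 difference between non-stretched cells of the 2 stages was larger in size than any of the 6 log2 fold changes of stretched against non-stretched cells. Non-stretched differentiated cells had 147 ± 5.41 CPM of Zfp36l1 and non-stretched myoblasts 19.5 ± 1.15 CPM (SD, n = 12 each), a log2 difference of 2.89 (SE 0.0248, adjusted p = 1.33e-31). Zfp36l2 was lower in differentiated cells, with 191 ± 14 against 598 ± 26 CPM (-1.67, adjusted p = 5.08e-24). Btg2, with 37.9 ± 1.67 against 16.9 ± 1.52 CPM, was higher in differentiated cells (1.14, adjusted p = 1.25e-24), and so was Tob1, with 121 ± 6.41 against 56.3 ± 2.36 CPM (1.08, adjusted p = 4.67e-24). Btg3 was lower (-0.79, adjusted p = 1.08e-19), and so were Tob2 by a small amount (-0.22, adjusted p = 2.42e-10) and Btg1 (-0.08, adjusted p = 4.66e-04). Zfp36 was at 19.9 ± 1.02 and 19.8 ± 0.856 CPM (-0.02, adjusted p = 0.46). Stage was tested across 2 tables of raw counts, 89.3% of all genes differed between the stages, and stage and experiment cannot be told apart.

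Per length of the gene, Zfp36l2 had the highest level of the 8 in myoblasts, at 169 ± 7.38 CPM per kb of annotated exons (SD, n = 12), followed by Btg1 at 33.6 ± 1.24 and Tob1 at 24.6 ± 1.03. Tob2 (12.2 ± 0.83) and Btg3 (11.7 ± 0.706) did not differ beyond their spread, nor did Zfp36l1 (6.52 ± 0.385), Btg2 (6.16 ± 0.556) and Zfp36 (5.71 ± 0.247) between neighbours in the order. In differentiated cells, Zfp36l2 (54.1 ± 3.98), Tob1 (53.0 ± 2.80) and Zfp36l1 (49.3 ± 1.81) lay within their spread of the next in order, ahead of Btg1 (32.6 ± 1.10), Btg2 (13.8 ± 0.609), Tob2 (10.7 ± 0.679), Btg3 (6.89 ± 0.264) and Zfp36 (5.74 ± 0.295). With the length of the longest coding transcript, Btg3 was higher, at 33.2 CPM per kb in myoblasts and 19.5 in differentiated cells. The relatives Zfp36l3 and Btg4 had at most 19 and 4 counts in a library.

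**Figure D4:**
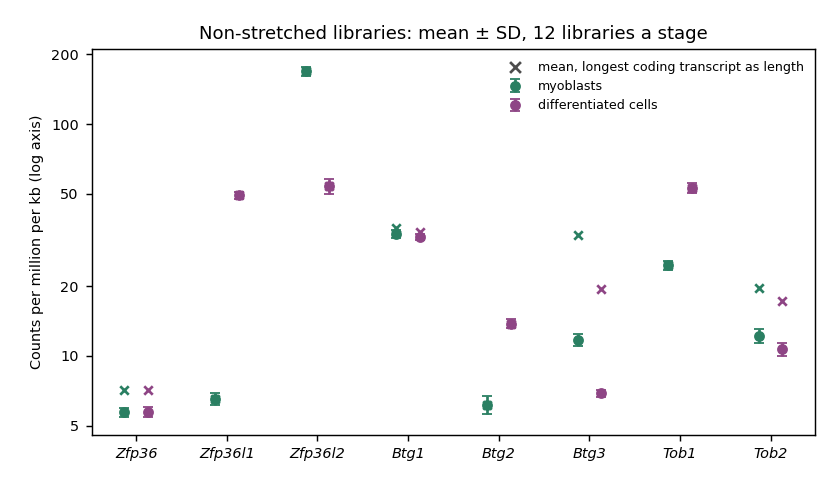
Level per kb of annotated exons (CPM per kb, log axis) of the 8 genes in non-stretched myoblasts (green) and differentiated cells (purple), as mean and SD of 12 libraries, with crosses for the mean per kb of the longest coding transcript. Zfp36l1 is at 6.52 and 49.3 CPM per kb and Zfp36l2 at 169 and 54.1 in myoblasts and differentiated cells, whereas Zfp36 is at 5.71 and 5.74.

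Of 18 tested genes of deadenylation (CCR4-NOT, PAN2-PAN3 and poly(A)-binding proteins), none was called in any comparison. The numbers with an adjusted p under 0.05 ranged from 0 in differentiated cells at 1 h (1 without replicate 4), beside 0.663% of all genes, to 9 in myoblasts at 3 h (7 higher and 2 lower), beside 31.9%. Their median log2 fold change was 0.056 in myoblasts at 3 h, where that of all genes was -0.007. Noct, a circadian gene of the same nuclease family as the CCR4 deadenylases that was picked after its values were seen, rose in myoblasts at 1 h by 0.30, at 3 h by 0.35 and at 6 h by 0.22, and in differentiated cells at 3 h by 0.52 and at 6 h by 0.44. In differentiated cells at 1 h its log2 fold change was 1.00 with all libraries (adjusted p = 0.253), and without replicate 4 it rose by 0.50 (adjusted p = 0.0128). None of 12 decapping genes, 14 other RNA-binding decay factors and 8 signalling genes (kinases, a phosphatase and 14-3-3 proteins that act on the Zfp36 proteins) was called in any comparison. In myoblasts at 1 h, where 5.92% of all genes had an adjusted p under 0.05, 2 decapping genes fell (Dcp2 by 0.46 and Dcp1a by 0.13) and none rose. Of the RNA-binding factors 1 rose and 1 fell, and no signalling gene passed. At 3 h (31.9% of all genes), 4 decapping genes rose and none fell, 2 of the RNA-binding factors rose and 2 fell, and 5 of the signalling genes rose and none fell. At 6 h (27.2%), 3 decapping genes rose and 1 fell. Of the RNA-binding factors 2 rose and 1 fell, and of the signalling genes 1 rose and 2 fell. In differentiated cells at 1 h none of these genes passed (0.663% of all genes), and without replicate 4 (1.12%) 1 decapping gene fell. At 3 h (22.2%), 1 decapping gene and 3 signalling genes rose, and 2 of the RNA-binding factors rose and 2 fell. At 6 h (22.3%), 2 decapping genes fell, 3 of the RNA-binding factors rose and 2 fell, and 1 signalling gene rose.

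Among 35 mRNAs known to carry AU-rich elements or to be Zfp36 targets, most of those that changed at 1 h rose. Rose and fell here mean an adjusted p under 0.05. That limit alone was passed in either direction by 5.92%, 31.9% and 27.2% of all genes in myoblasts at 1, 3 and 6 h. In differentiated cells these shares were 0.663% (1.12% without replicate 4), 22.2% and 22.3%. In myoblasts at 1 h, 13 of 30 tested rose and 2 fell, with a median log2 fold change of 0.213 beside 0.002 for all genes. Called were Fos, an AP-1 subunit (1.48 ± 0.131 CPM without and 6.59 ± 0.869 CPM with stretching, SD, n = 4), Fosb (2.15 ± 0.304 and 9.12 ± 1.77 CPM), Ptgs2, the inducible cyclooxygenase (90.3 ± 5.18 and 182 ± 18.3 CPM), and 2 others, while 0.254% of all genes were called higher. In differentiated cells at 1 h 5 of 30 rose and none fell (median 0.491, all genes 0), and 4 were called higher, beside 0.0901% of all genes, led by log2 fold changes of 4.01 for Fosb and 2.76 for Fos. Without replicate 4, 10 rose and 9 were called (0.172% of all genes), and the median was 0.248. At 3 h 15 of 29 rose and 3 fell in myoblasts (median 0.098, 3 called higher), and 14 of 30 rose and 3 fell in differentiated cells (median 0.165, 5 called higher and 1 lower), where 0.459% and 0.89% of all genes were called higher. At 6 h 7 of 29 rose and 4 fell in myoblasts (median 0.048, 2 called higher, beside 1.35% of all genes). In differentiated cells 6 of 30 rose and 5 fell (median 0.07, 1 called higher, beside 0.518% of all genes). Ccl2, a chemokine, was called higher at 3 h and 6 h in both stages, with log2 fold changes of 0.95, 0.76, 0.76 and 0.59. Many genes of this list are also known as immediate early genes, and whether their levels moved with those of the Zfp36 family was not tested.

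Over the 24 myoblast libraries, the genes most like Btg2 were Arap3 (Pearson r 0.905), Dhrs7 (0.896) and Hlcs (0.893), among 11400 genes whose mean count was 100 or more. These libraries share the same groups and experiments, so r describes the pattern only. Arap3 had 2.77 ± 0.185 CPM in non-stretched and 2.02 ± 0.181 CPM in stretched myoblasts at 3 h, and Hlcs 8.20 ± 0.212 and 6.87 ± 0.528 CPM (SD, n = 4).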

How the data were processed

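RNA-seq libraries of C2C12 cells (48 libraries, 12 groups of 4) were analysed from 2 tables of gene counts deposited by the authors, 1 for each stage. The authors aligned reads with STAR 2.7.6a and quantified them with Salmon 1.4.0, and the deposited values are whole counts per gene that were not normalized. The libraries were made with a stranded mRNA method (Kapa). How reads shared between genes were divided by Salmon, and whether the counting used the strand, is not given in the sources used here. Groups were taken from the labels, and 0 columns were left without a sample.

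Each stage and time was tested on its 8 libraries with edgeR 4.0.16 (R 4.3.3): filterByExpr, TMM factors, quasi-likelihood test, Benjamini-Hochberg adjustment over all genes tested. Called genes had an adjusted p under 0.05 and a log2 change of 0.58 or more in size. Differences between times used the 24 libraries of a stage, and differences between stages and in non-stretched level used the 2 tables joined. The 8 members were named in full, listed genes where called (at most 3 per comparison), and, for a called member, the 3 genes with the highest Pearson r. The members and lists were chosen with earlier results of these data known. In simulated data for myoblasts at 3 h, 100% of 200 genes changed by a log2 of 1 were recovered among 14679 genes, with 2 false calls. For differentiated cells at 1 h 98% were recovered, with 3 false calls. Smaller changes, such as those of the members, were not simulated, so recovery of these is not known. No pair of replicates differed by as little as sampling noise (chi-square per gene at least 2.74 over 72 pairs). Alternatives were DESeq2 1.42.0, RLE scaling, other filters and limits, experiment as a covariate, a replicate block, 1 model per stage, and each library left out. Alternatives on counts by adjusted p alone, on gene length, on lists without replicate 4 and on single members' differences were chosen after seeing the data.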

Additional observations from a re-analysis of the deposited data

Results flagged for a closer look

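In differentiated cells stretched for 1 h, replicate 4 lay far from the other 3 libraries of its group for 3 of the 8 genes. It had 40.0 CPM of Zfp36 (the others 12.8, 13.2 and 15.6), 123 CPM of Btg2 (54.8, 55.1 and 61.5) and 38.2 CPM of Btg3 (27.7, 28.7 and 28.9). In all, 96 groups of 4 values were examined with Dixon's criterion, which chance alone meets in about 1 in 20 groups. All 3 values come from 1 library, the only one of its experiment, so library, experiment and treatment cannot be told apart for it.

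The effect of stretching differed between times in 21 cases, by a test of the difference in log2 fold change (later time minus 1 h, edgeR). In myoblasts at 3 h the differences were 0.51 for Zfp36, -0.64 for Zfp36l1, -0.15 for Btg1 (adjusted p = 0.0282, lost in 8 of 24 fits without 1 library), -0.69 for Btg2, -0.23 for Tob1 (adjusted p = 0.0103) and 0.43 for Tob2. At 6 h they were 0.56 for Zfp36, -0.23 for Zfp36l1, -0.26 for Zfp36l2, -0.42 for Btg2, -0.24 for Btg3, 0.24 for Tob1 and 0.31 for Tob2. In differentiated cells at 3 h they were -0.36 for Zfp36l1, -1.26 for Btg2 and 0.52 for Tob2. At 6 h they were -0.49 for Zfp36l1, -0.22 for Btg1, -1.14 for Btg2, 0.22 for Tob1 and 0.42 for Tob2, and that of Tob1 was lost in 11 of 24 fits without 1 library, among them the fit without replicate 4 (0.18, adjusted p = 0.0601).

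Between stages (differentiated cells minus myoblasts) the effect differed by -0.32 for Zfp36 and 0.34 for Zfp36l1 at 3 h, and by -0.27 for Zfp36 and -0.18 for Btg1 at 6 h. Of these, the differences of Zfp36 were lost in 11 of 16 fits without 1 library at 3 h and in 10 of 16 at 6 h, and that of Btg1 in 14 of 16.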

How the results depend on the processing

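Replicate 4 of differentiated cells stretched for 1 h, the 1 library of its experiment, set the sign of Zfp36. Its log2 fold change of 0.07 became -0.46 with experiment as a covariate (adjusted p = 0.00455), -0.49 with the replicate block (0.0149) and -0.48 without that library (0.0211). The difference of Zfp36 between 3 h and 1 h in differentiated cells became 0.25 with the covariate and 0.25 with the block, and that between 6 h and 1 h became 0.33, 0.33 and, without the library, 0.35. With the covariate the library has no partner and no longer bears on the value, and likewise with the block in the differences between times. The block fit at 1 h left out stretched replicate 4 and non-stretched replicate 10, which have no same-numbered partner.

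The number of the 8 genes with an adjusted p under 0.05 in differentiated cells at 1 h was 0, but 1 with DESeq2, 4 with all 24 libraries of the stage in 1 model, 4 with the covariate, 1 without a filter on low counts and 3 with the replicate block. It fell from 5 to 2 in 1 model at 3 h, and at 6 h to 2 in 1 model, 3 without a filter and 3 with the block. In myoblasts at 1 h it fell from 5 to 3 with the block. With no fold-change limit 5, 6 and 2 genes were called in myoblasts and 5 and 5 in differentiated cells at 3 h and 6 h. The glmTreat test called 0 in myoblasts at 3 h, and 1 model called 1 (Btg2) in differentiated cells at 1 h. The stage differences became 1 at 1 h with the block, and at 6 h 0 without a filter and 0 with the block. With the covariate 1 gene differed among the non-stretched times of differentiated cells. With the longest coding transcript as length, the levels in myoblasts and differentiated cells were 7.10 and 7.14 CPM per kb for Zfp36, 35.5 and 34.4 for Btg1, 33.2 and 19.5 for Btg3, and 19.7 and 17.2 for Tob2. The share of all genes was not counted in the alternative fits, so their numbers of genes cannot be set beside it. The cause of these shifts was not tested.

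Same-numbered libraries were not taken as pairs. Of 23 pairs, 6 had deviations correlated over 0.1 (range -0.05 to 0.156), and 8 libraries correlated best with their own number.

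With single libraries left out, 0 to 1 genes were called in myoblasts at 3 h. The number with an adjusted p under 0.05 was 2 to 5, 6 to 6 and 2 to 4 in myoblasts and 0 to 3, 3 to 5 and 3 to 4 in differentiated cells at 1 h, 3 h and 6 h (4 in myoblasts at 6 h without stretched replicate 10). The difference of Zfp36 between 6 h and 1 h in differentiated cells ranged from -0.37 to 0.35, and its value at 1 h from -0.48 to 0.25. Stage differences numbered 0 to 1, 1 to 2 and 0 to 2. Time differences numbered 5 to 6 and 7 to 7 in myoblasts and 3 to 3 and 4 to 5 in differentiated cells. The non-stretched times differed in 2 to 3 genes in myoblasts and 0 to 1 in differentiated cells. Among these fits, the share of all genes was counted only for differentiated cells at 1 h without replicate 4, as given above.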
